A study of Mus musculus with 6 samples.

Results

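The genes of Polycomb repressive complex 2 (PRC2) were followed in mouse neural stem cells (NSC). The 10 genes were chosen by name and taken from the 50686 gene identifiers counted: Ezh1, Ezh2, Eed, Suz12 and Rbbp4, which make the core, Mtf2, Phf1 and Phf19, which define PRC2.1, and Jarid2 and Aebp2, which define PRC2.2. RNASeq was done on 2 cultures of NSC from wild-type E16.5 embryos and on 2 cultures labelled NSC Bmi1Over, from E16.5 embryos carrying STOPFloxBmi1 and NestinCre. In the latter, Cre driven by Nestin removes a stop cassette in front of a Bmi1 transgene, so the transgene is switched on in Nestin-expressing progenitors and in the cells derived from them. H3K27me3 ChIPSeq peaks come from 1 library of each kind, and the mGIC samples of the study were not analysed here. The cells were taken from the subventricular zone of the cerebral hemispheres, and the sources used here do not say whether the NSC libraries came from neurospheres or adherent cells, nor that the NSC Bmi1Over cultures came from different embryos. The p-values below measure only the spread between these cultures.

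PRC2 is the enzyme that places methyl groups on lysine 27 of histone H3, and its trimethylated product, H3K27me3, marks repressed genes. Ezh2 or its paralogue Ezh1 carries the catalytic domain, Eed reads the finished mark and stimulates the enzyme, Suz12 is the scaffold on which the accessory subunits dock, and Rbbp4 binds histones. The accessory subunits bring the complex to chromatin and come in mutually exclusive sets, the Polycomb-like proteins in PRC2.1 and Jarid2 with Aebp2 in PRC2.2. Bmi1 belongs to PRC1, the partner complex that places ubiquitin on histone H2A, and in neural stem cells both complexes are known for holding lineage genes silent.

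In the 4 RNASeq libraries between 18112100 and 61353076 reads were counted on genes. Bmi1 was measured at 133 and 123 CPM (reads of the gene scaled to a fixed library size, after TMM normalisation) in NSC and at 119 and 112 CPM in the libraries labelled NSC Bmi1Over. The raised Bmi1 that the label names was therefore not seen in these counts (log2 fold change -0.15 ± 0.12 SE, n = 2 and 2, edgeR quasi-likelihood adjusted p = 0.463), so each direction given here is between labelled groups. Whether reads from the transgene fall on the Bmi1 exons counted was not tested. Neural stem cell markers were abundant, with Nes between 914 and 1147 CPM, Sox2 between 177 and 260.0 CPM and Vim between 1340 and 1519 CPM. Of the 11 such markers 0 were called, but 8 had a log2 fold change below 0, 7 were lower in NSC Bmi1Over without overlap (as 30% of all tested genes were) and the median was -0.23, the part of which in the PRC2 values was not tested. Over all 15521 tested genes edgeR called 334 at an adjusted p under 0.05, which is 2.15% of them, with 315 higher (2.03%) and 19 lower (0.122%) in NSC Bmi1Over, and the median log2 fold change was -0.01. This split moved with the scaling, to 345 higher and 187 lower with library size alone, and with single cultures, to 1952 and 594 without NSC Bmi1Over replicate 1, 1200 and 261 without NSC replicate 2, 183 and 47 without NSC Bmi1Over replicate 2, and 172 and 4 without NSC replicate 1.

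All 10 PRC2 genes passed the filter on low counts and were tested, and 0 were called by edgeR against 2.15% of all tested genes. One of the 10, Phf1, had an unadjusted p under 0.05, as 24.2% of all tested genes did. The log2 fold changes were below 0 for 8 and above 0 for 2, with a median of -0.08. Phf1 differed most between the groups and also varied most within each of them.

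To show the regulatory sequence behind these genes, promoter windows were taken from RefSeq (GRCm38.p6), where 10 of 10 genes matched with 14 windows of 300 bases. A window of a PRC2 gene had a median GC content of 63.5% and a median of 23.5 CpG, against 52.7% and 7 CpG over 32841 windows of all genes. Ranges were wide, from 45.7% to 74.3% GC, the lowest being the second start of Mtf2 and the highest Phf19. An E2F-type motif, the site of the factors that switch on S-phase genes, was searched on both strands as TTTCCCGC, TTTCGCGC, TTTGCCGC and TTTGGCGC. It was found in 3 of the 14 windows, those of Ezh2, Suz12 and Phf19, and in 2.27% of all windows. The motif of NRF1, a factor of CpG-rich promoters, was searched in the same way as GCGCACGCGC and GCGCATGCGC and was found in 2 of the 14 windows, those of the paralogues Ezh1 and Ezh2, and in 2.27% of all windows. The first of these spellings was added after the second alone had been found in 0 of the 14 windows and 0.971% of all. These matches are letters in a window and no evidence of binding. Every spelling contains CpG, in which the PRC2 windows are richer, and the share among windows of like CpG content was not computed. The 4 windows with a motif and that of Phf1, the gene with the largest difference between groups, are given as 280 bases on the strand of the gene, from 250 before the start to 30 after it, with the motifs in capitals and no overlap between them. The E2F-type motif begins at position 4 in Ezh2 (chr6:47595001-47595280, minus strand), at -219 in Suz12 (chr11:79992856-79993135, plus strand) and, read from the opposite strand, at -208 in Phf19 (chr2:34913947-34914226, minus strand), counting the start as 1. The NRF1-type motif begins at -165 in Ezh2 and at -36 in Ezh1 (chr11:101226434-101226713, minus strand). The window of Phf1 (chr17:26932877-26933156, plus strand) held neither motif.
Ezh2: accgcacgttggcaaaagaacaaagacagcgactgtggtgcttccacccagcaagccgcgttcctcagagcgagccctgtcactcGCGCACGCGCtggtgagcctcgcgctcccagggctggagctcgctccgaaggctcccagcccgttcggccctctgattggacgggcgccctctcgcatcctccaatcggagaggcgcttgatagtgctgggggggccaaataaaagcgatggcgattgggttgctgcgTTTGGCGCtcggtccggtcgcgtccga
Ezh1: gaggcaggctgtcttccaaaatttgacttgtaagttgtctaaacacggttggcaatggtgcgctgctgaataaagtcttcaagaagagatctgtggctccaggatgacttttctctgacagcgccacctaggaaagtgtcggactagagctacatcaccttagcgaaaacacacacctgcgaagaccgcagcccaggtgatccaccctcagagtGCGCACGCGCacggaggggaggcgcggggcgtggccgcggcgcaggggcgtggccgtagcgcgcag
Suz12: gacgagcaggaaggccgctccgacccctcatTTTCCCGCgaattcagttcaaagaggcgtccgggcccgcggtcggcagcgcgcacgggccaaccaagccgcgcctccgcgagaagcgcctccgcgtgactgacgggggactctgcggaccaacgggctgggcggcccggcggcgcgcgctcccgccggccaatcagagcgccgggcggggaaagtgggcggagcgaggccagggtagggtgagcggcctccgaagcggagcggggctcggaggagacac
Phf19: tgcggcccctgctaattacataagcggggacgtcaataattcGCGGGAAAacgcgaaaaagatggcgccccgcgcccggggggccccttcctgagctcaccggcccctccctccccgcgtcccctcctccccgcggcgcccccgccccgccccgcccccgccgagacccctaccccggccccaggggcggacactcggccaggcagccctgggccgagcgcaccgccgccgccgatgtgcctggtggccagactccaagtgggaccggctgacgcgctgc
Phf1: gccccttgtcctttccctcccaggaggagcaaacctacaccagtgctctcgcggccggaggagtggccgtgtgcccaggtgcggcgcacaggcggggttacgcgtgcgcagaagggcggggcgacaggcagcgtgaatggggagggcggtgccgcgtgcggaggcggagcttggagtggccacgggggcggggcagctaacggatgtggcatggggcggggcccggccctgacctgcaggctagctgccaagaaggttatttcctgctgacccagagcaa
All 5 windows shown are rich in CpG, with 31 in Ezh2, 23 in Ezh1, 41 in Suz12, 38 in Phf19 and 24 in Phf1 over the 300 bases.

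To compare levels between genes, CPM was divided by the length of all annotated exons in kilobases (CPM per kb). Averaged over the 4 libraries, Rbbp4 stood highest at 26.5 CPM per kb, followed by Ezh2 at 18.8 and Suz12 at 18.0. A middle group held Phf1 at 9.15, Eed at 9.03, Aebp2 at 8.003, Mtf2 at 6.31 and Jarid2 at 4.89 CPM per kb. Phf19 at 3.48 and Ezh1 at 1.34 CPM per kb were the lowest. Of the 9 neighbouring pairs in this order, 4 had ranges over the libraries that overlapped, namely Ezh2 with Suz12, Phf1 with Eed, Eed with Aebp2, and Mtf2 with Jarid2. Phf1 stood above Eed in 1 library, NSC Bmi1Over replicate 2, where it was at 14.5 CPM per kb. In NSC alone the mean of Phf1 was 6.43 CPM per kb, below Eed at 9.26 and Aebp2 at 8.39. The place of Phf1 also moved with the length used, since by the longest coding transcript it came sixth, at 12.6 CPM per kb. By exon bases that no other gene covers it stood at 15.1 CPM per kb. That value may be too high, since AC144621.3, an annotated gene that covers some of the bases left out, was not among the identifiers counted. Reads on bases that it alone covers would stay with Phf1. By the longest coding transcript the order of the other 9 genes was unchanged. The abundance of Rbbp4 is not specific to PRC2, as it also serves other chromatin complexes.

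**Figure D1:**
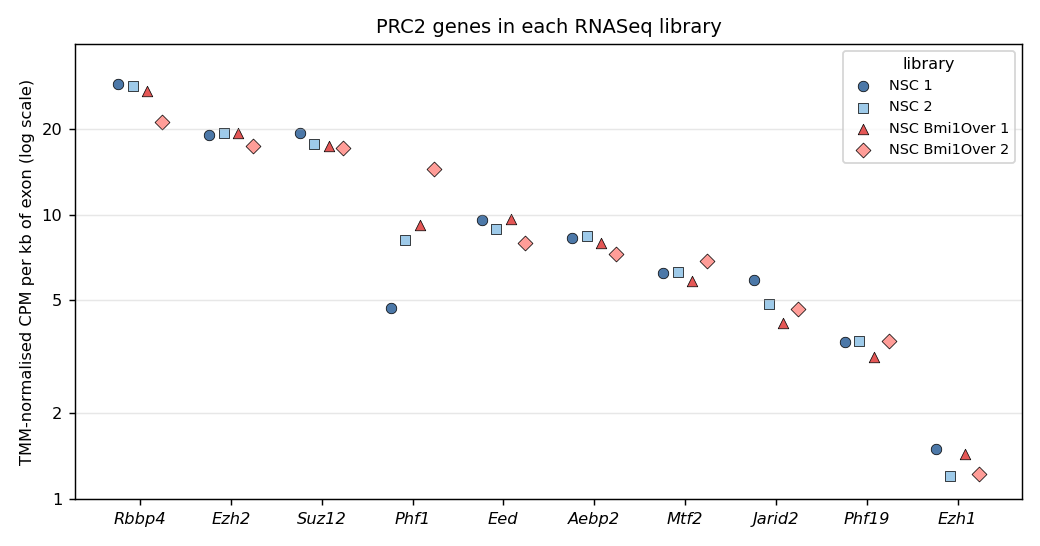
Levels of the 10 PRC2 genes in each RNASeq library, in TMM-normalised CPM per kb of exon on a log axis, with genes ordered by their mean and 1 point per library. The libraries lie close together for most genes, from Rbbp4 at 26.5 to Ezh1 at 1.34 CPM per kb on average, while those of Phf1 spread from 4.70 to 14.5.

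Ezh2, the main catalytic subunit of dividing cells, was measured at 128 and 129 CPM in NSC and at 129 and 116 CPM in NSC Bmi1Over. The groups overlapped, and the log2 fold change was -0.07 ± 0.13 (SE, n = 2 and 2, edgeR adjusted p = 0.764). Its 95% interval, from -0.35 to 0.22, limits the difference to between 0.784 and 1.16 times the NSC level.

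Ezh1, the weaker paralogue that prevails in resting cells, was measured at 11.2 and 8.97 CPM in NSC and at 10.7 and 9.11 CPM in NSC Bmi1Over. Each group held a higher and a lower library, and the log2 fold change was -0.04 ± 0.19 (edgeR adjusted p = 0.918, 95% interval -0.48 to 0.40). Per kilobase Ezh2 exceeded Ezh1 12.7 and 16.1 times in NSC and 13.5 and 14.2 times in NSC Bmi1Over. The ratio thus lay within the range of NSC in both other libraries, with a log2 difference of -0.05 and an exact two-sided permutation p of 1, and with 2 against 2 cultures no such test can go below 0.3333. Without NSC replicate 2 the log2 difference was 0.12.

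Eed, which binds the finished mark, was measured at 36.7 and 34.2 CPM in NSC and at 37.0 and 30.4 CPM in NSC Bmi1Over, and the groups overlapped (log2 fold change -0.08 ± 0.14, edgeR adjusted p = 0.742). Suz12, the scaffold, was measured at 96.1 and 88.1 CPM in NSC and at 86.5 and 85.0 CPM in NSC Bmi1Over. Both NSC Bmi1Over libraries were lower, though the gap between the groups was smaller than that between the NSC cultures (log2 fold change -0.10 ± 0.12, edgeR adjusted p = 0.612). The ratio of Eed to Suz12 per kilobase was 0.493 and 0.502 in NSC and 0.553 and 0.462 in NSC Bmi1Over. The ratio of Ezh2 to Suz12 was 0.985 and 1.09 in NSC against 1.11 and 1.01. Both ratios depended on the length used. By the longest coding transcript Ezh2 to Suz12 was 2.09 and 2.303 in NSC and 2.35 and 2.15 in NSC Bmi1Over, and Eed to Suz12 was 0.808 and 0.822 against 0.905 and 0.756.

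Rbbp4, the histone chaperone, was measured at 254 and 248 CPM in NSC and at 238 and 186 CPM in NSC Bmi1Over. Both NSC Bmi1Over libraries were lower, the second by more, and the log2 fold change was -0.24 ± 0.16 (edgeR adjusted p = 0.363, 95% interval -0.60 to 0.12). Without NSC Bmi1Over replicate 2 it was -0.07. Of its exon bases 18.0% are shared with Sync and Gm26722, both of which were below 1 CPM in every library.

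Among the Polycomb-like genes, whose proteins bind unmethylated CpG-rich DNA, Mtf2 was measured at 35.5 and 35.8 CPM in NSC and at 33.4 and 39.2 CPM in NSC Bmi1Over. The groups overlapped, with a log2 fold change of 0.03 ± 0.13 (edgeR adjusted p = 0.897). Phf19 was measured at 18.0 and 18.1 CPM in NSC and at 15.9 and 18.1 CPM in NSC Bmi1Over, again with overlap (log2 fold change -0.09 ± 0.14, edgeR adjusted p = 0.736). The 95% intervals, -0.27 to 0.33 for Mtf2 and -0.42 to 0.24 for Phf19, leave room for differences of that size only.

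Phf1 was the exception in size. It was measured at 16.4 and 28.5 CPM in NSC (517 and 721 reads) and at 32.1 and 50.6 CPM in NSC Bmi1Over (563 and 2893 reads). The groups did not overlap, but NSC replicate 2 lay closer to NSC Bmi1Over replicate 1 than to the other NSC culture. The log2 fold change was 0.90 ± 0.28 (95% interval 0.27 to 1.53), and 5.17% of all tested genes had one as high. By edgeR the adjusted p was 0.103, so Phf1 was not called. The log2 difference between the NSC cultures alone was 0.80, a size that 5.41% of tested genes reached.

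The call on Phf1 depended on the test and on single cultures. DESeq2 gave an adjusted p of 0.0155 and edgeR with no filter on low counts one of 2.001e-06. With the filter, edgeR called it without NSC replicate 2 (log2 fold change 1.34, adjusted p = 6.69e-06) and without NSC Bmi1Over replicate 1 (1.18, adjusted p = 0.0181). It was not called without NSC replicate 1 (0.54, adjusted p = 0.426) or without NSC Bmi1Over replicate 2 (0.53, adjusted p = 0.379). In every one of these the difference stayed above 0. With a culture left out, 1 group holds a single library, which is assumed to vary like the libraries of the other group. Of the exon bases of Phf1, 39.3% are also covered by Cuta, a neighbouring gene, or by AC144621.3, which was not among the identifiers counted. Cuta itself was measured at 38.6 and 40.4 CPM in NSC and at 48.9 and 36.0 CPM in NSC Bmi1Over. Its log2 fold change was 0.10 ± 0.16 (edgeR adjusted p = 0.732). Reads on bases shared with Cuta count for neither gene, so these values do not show the part of the overlap in Phf1, which was not tested.

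Ranked by Phf1, the 4 libraries fell in the same order as by several other measures. The share of unmapped reads was 11.2% and 13.7% in NSC and 16.2% and 17.6% in NSC Bmi1Over, and the 10 most counted genes took 5.23%, 6.48%, 8.57% and 10.1% of the reads. Syt1, a synaptic vesicle gene on the list of neuron markers, was measured at 9.12, 27.2, 66.4 and 95.8 CPM and was called higher (log2 fold change 2.18, edgeR adjusted p = 0.0428). It was the 1 gene called of 6 tested neuron markers, against 2.15% of all tested genes, and 4 of the 6 had a log2 fold change below 0 (median -0.14). The 7 neuron markers listed had a summed level that ranged from 945 to 970 CPM in NSC and from 925 to 1011 CPM in NSC Bmi1Over, with Stmn2 at 6 reads or fewer in each library. Aldh1l1, an astrocyte gene, ran the other way at 122, 94.1, 65.9 and 53.2 CPM (log2 fold change -0.86, edgeR adjusted p = 0.0440). It was the 1 gene called of 6 tested astrocyte markers, of which 3 lay above 0 and 3 below, and whose sum ranged from 400 to 415 CPM in NSC and from 401 to 465 CPM in NSC Bmi1Over. Markers of microglia (5 genes, 4 of them at 1 CPM or less throughout) summed to 1.298 and 1.98 CPM in NSC and 2.45 and 3.09 CPM in NSC Bmi1Over. Endothelial markers (5 genes, 3 of them at 1 CPM or less) summed to 2.66 and 3.87 against 4.97 and 5.52 CPM. The 7 oligodendrocyte lineage markers did not follow this order, summing to 2479 and 2607 CPM in NSC and 2563 and 2484 CPM in NSC Bmi1Over, with 0 called and a median log2 fold change of 0.18. Of all tested genes, 17.6% rose in the order of the libraries by Phf1 and 16.2% fell in it. The part of these measures in the Phf1 difference was not tested, and in such bulk RNA fewer cells of a type and less RNA per cell cannot be told apart.

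**Figure D2:**
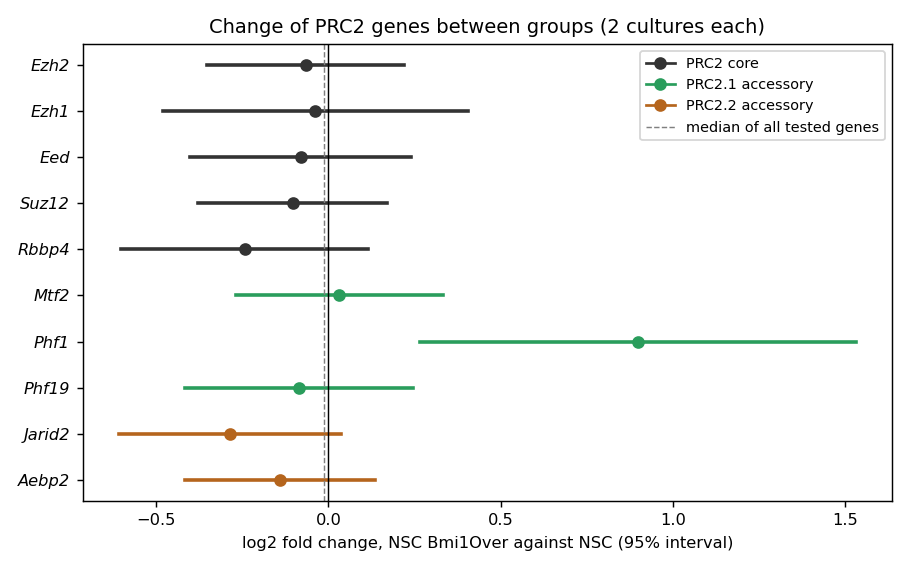
Log2 fold change of each PRC2 gene in NSC Bmi1Over against NSC from edgeR, with 2 cultures a group, bars giving the 95% interval, colours the subunit class and the dashed line the median of all tested genes (-0.01). The interval of Phf1, from 0.27 to 1.53, is the only one of the 10 that does not include 0, and Phf1 was not called after adjustment over all genes.

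Jarid2, which links PRC2.2 to chromatin and is itself a substrate of the enzyme, was measured at 57.4 and 47.1 CPM in NSC and at 40.3 and 45.3 CPM in NSC Bmi1Over. Both NSC Bmi1Over libraries were lower than both NSC libraries, but NSC replicate 2 and NSC Bmi1Over replicate 2 lay close to each other. The log2 fold change was -0.28 ± 0.14 (edgeR adjusted p = 0.254, 95% interval -0.61 to 0.04).

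Aebp2, a zinc finger protein that helps to hold PRC2.2 on nucleosomes, was measured at 81.9 and 83.3 CPM in NSC and at 78.6 and 71.5 CPM in NSC Bmi1Over. The groups did not overlap, and the log2 fold change was -0.14 ± 0.12 (edgeR adjusted p = 0.489). Jarid2 stood below Aebp2 per kilobase in each library, with ratios of 0.711 and 0.573 in NSC and 0.521 and 0.642 in NSC Bmi1Over.

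In all, the groups did not overlap for 5 of the 10 genes, with Suz12, Rbbp4, Jarid2 and Aebp2 lower and Phf1 higher in NSC Bmi1Over. Over all tested genes this held for 59% of them, 30% lower and 29% higher, so the count of 5 is no more than the background. By class, the medians of the log2 fold change were -0.08 for the 5 core genes, 0.03 for the 3 genes of PRC2.1 and -0.21 for the 2 genes of PRC2.2.

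To compare the balance of the alternative complexes, the levels per kilobase of Mtf2, Phf1 and Phf19 were summed and divided by the sum of Jarid2 and Aebp2. The ratio was 1.02 and 1.36 in NSC and 1.503 and 2.09 in NSC Bmi1Over, and by the longest coding transcript 0.857 and 1.14 against 1.26 and 1.76. Both NSC Bmi1Over libraries thus lay above both NSC libraries (log2 difference 0.59), with the smallest p that the exact permutation test allows, 0.3333, or 0.75 after Benjamini-Hochberg adjustment over the 9 ratios and shares computed. With 1 culture left out the log2 difference ran from 0.35 (without NSC Bmi1Over replicate 2) to 0.83 (without NSC Bmi1Over replicate 1). Of the genes in the ratio, Phf1 had the largest log2 fold change, 0.90. The others were at 0.03 for Mtf2, -0.09 for Phf19, -0.28 for Jarid2 and -0.14 for Aebp2. The ratio also rose in the library order described above for Phf1, and a ratio without Phf1 was not computed. Phf1 took 32.4% and 45.3% of the Polycomb-like sum in NSC and 50.5% and 58.1% in NSC Bmi1Over. Mtf2 took 42.9% and 34.8% against 32.2% and 27.5%, and Phf19 took 24.7% and 19.9% against 17.3% and 14.4%. These shares fall when Phf1 rises, even where the levels of Mtf2 and Phf19 do not change. Per kilobase of exon the most abundant Polycomb-like RNA was Mtf2 in NSC replicate 1 and Phf1 in the other 3 libraries. By exon bases that no other gene covers, Phf1 was at 7.74 and Mtf2 at 6.69 CPM per kb in NSC replicate 1. As that length may overstate Phf1, because AC144621.3 was not counted, which of them was higher there is not settled. Accessory genes summed to 1.39 and 1.52 times the sum of Ezh1 and Ezh2 in NSC and to 1.46 and 1.98 times in NSC Bmi1Over, where the groups overlapped. By the longest coding transcript this ratio was 0.895 and 0.965 in NSC and 0.923 and 1.23 in NSC Bmi1Over, so which sum was the larger turned with the length in 3 of the 4 libraries.

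**Figure D3:**
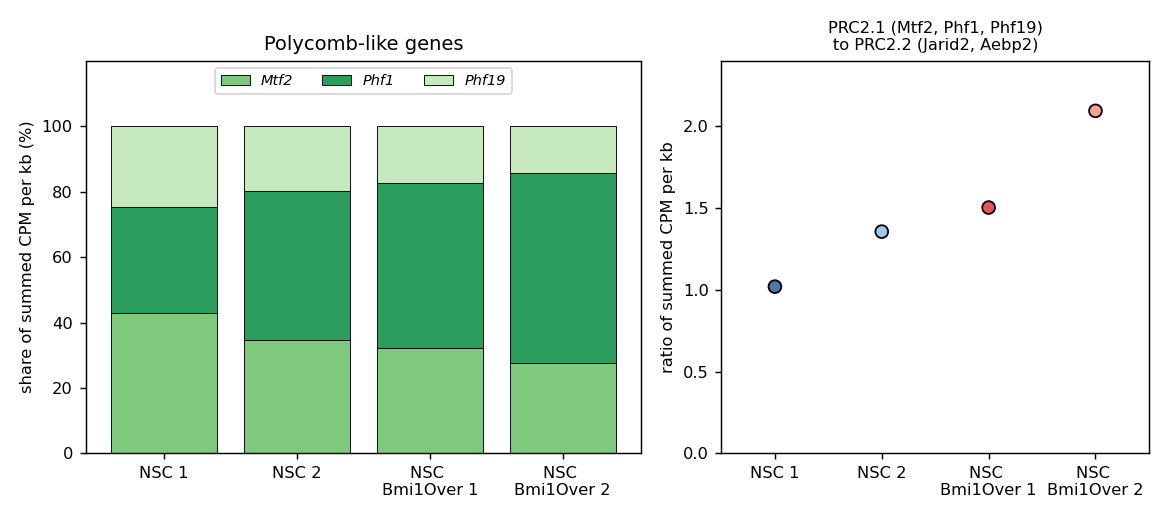
Left, the share of Mtf2, Phf1 and Phf19 in their summed CPM per kb in each RNASeq library. Right, the ratio of PRC2.1 to PRC2.2 accessory genes in the same units, 1 point per library, which runs from 1.02 in NSC 1 to 2.09 in NSC Bmi1Over 2.

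When single cultures were dropped, the log2 fold change kept its sign for Suz12 (-0.17 to -0.04), Rbbp4 (-0.43 to -0.07), Phf19, Jarid2 (-0.43 to -0.14), Aebp2 (-0.21 to -0.07) and Phf1. It changed sign at least once for Ezh1 (-0.19 to 0.13), Ezh2 (-0.15 to 0.01), Eed (-0.23 to 0.06) and Mtf2 (-0.09 to 0.13). None of these 9 genes other than Phf1 was called with a culture left out.

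**Figure D4:**
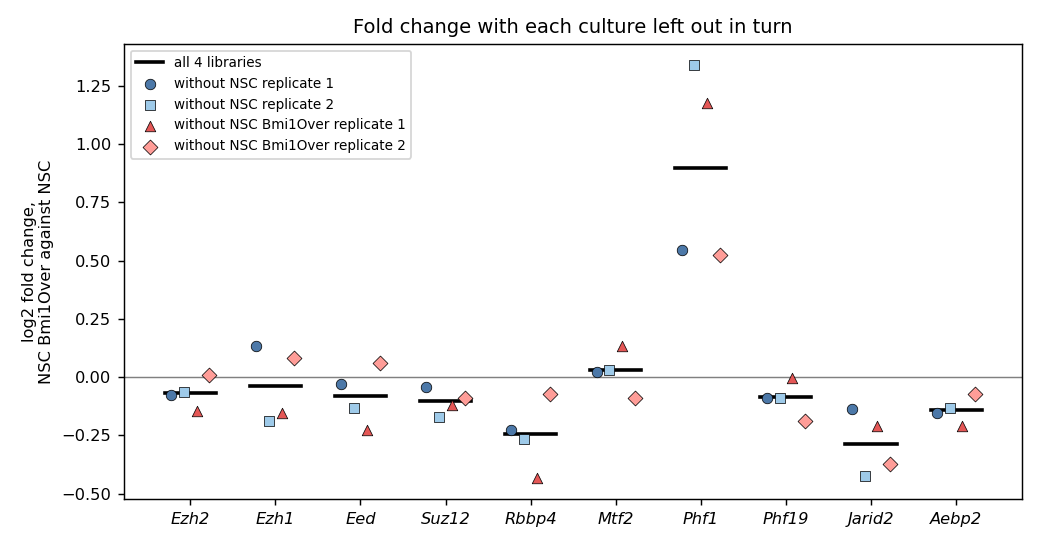
Log2 fold change of each PRC2 gene with all 4 RNASeq libraries (black bars) and with each culture left out in turn (points). Phf1 runs from 0.53 to 1.34, above 0 throughout, while the other 9 genes stay between -0.43 and 0.13.

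Other partners of the complex were read beside its subunits. Rbbp7, the paralogue of Rbbp4, was measured at 183 and 187 CPM in NSC and 204 and 153 CPM in NSC Bmi1Over (log2 fold change -0.05 ± 0.16, edgeR adjusted p = 0.852). Epop, an optional subunit of PRC2.1, was measured between 3.31 and 4.46 CPM (0.06 ± 0.25, adjusted p = 0.899). Lcor and Lcorl are the genes that also encode the PALI proteins of PRC2.1. Lcor was measured at 18.7 and 14.7 CPM in NSC and at 12.6 and 8.60 CPM in NSC Bmi1Over, lower in both, without being called (log2 fold change -0.68 ± 0.22, edgeR adjusted p = 0.112). Lcorl was at 50.1 and 44.9 against 40.1 and 42.0 CPM (-0.21 ± 0.12, edgeR adjusted p = 0.321). Ezhip, an inhibitor of the enzyme, had 5, 2, 2 and 9 reads and was not tested. In this list 0 of the 4 tested genes were called, beside 2.15% of all tested genes.

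The demethylases that remove the mark were not called either. Kdm6a was measured at 61.8 and 58.6 CPM in NSC and 59.8 and 50.7 CPM in NSC Bmi1Over (log2 fold change -0.13 ± 0.13, edgeR adjusted p = 0.561), and Kdm6b (JmjD3) at 102 and 86.4 CPM against 62.1 and 91.5 CPM (-0.29 ± 0.19, adjusted p = 0.361). The Kdm6b values of the groups overlapped, the NSC Bmi1Over cultures lying further apart than the NSC cultures. Of 21 PRC1 subunit genes 0 were called by edgeR (2.15% of all tested genes) and 4 had an unadjusted p under 0.05 (24.2% of all tested genes), with a median log2 fold change of -0.10. Of 24 cell cycle genes 0 were called and 1 had an unadjusted p under 0.05, beside the same shares of 2.15% and 24.2%, with a median of -0.11.

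To see whether PRC2 genes carried the mark of their own complex, the H3K27me3 peaks, 12982 in NSC and 6810 in NSC Bmi1Over, were set against annotated starts. With 1 library per condition there is no replicate check, and the peak lists carry no read depth. The methods of the study give aligned read totals that differ between its ChIPSeq libraries, and how depth bears on the number of peaks was not tested. No peak lay within 5 kb of any start of the 10 genes in either list. Over 22028 protein-coding genes 8.83% had one in NSC and 4.38% in NSC Bmi1Over, and at such shares a count of 0 of 10 does not set the PRC2 genes apart. The count was also 0 of 10 with a window of 1 kb, with peaks of a −log10 q of at least 3, with a fold enrichment of at least 5 and with an overlap of at least 100 bases. Of the other partners, Epop carried a promoter peak in both lists and Lcor in NSC, and of the 21 PRC1 genes Pcgf1, Pcgf2, Cbx2 and Bcor did in NSC and Pcgf2 and Cbx2 in NSC Bmi1Over. Of the 24 cell cycle genes Bub1 did in both lists. These were named because they carried a peak, and several lost it under a stricter setting. In NSC, Lcor lost it with a window of 1 kb, a −log10 q of at least 3 or a fold enrichment of at least 5, Pcgf1 with a window of 1 kb, and Bub1 under all 3 of these. In NSC Bmi1Over, Epop, Pcgf2 and Cbx2 lost it with a fold enrichment of at least 5, and Bub1 with that or a window of 1 kb.

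The distance to the nearest peak was read for the PRC2 genes and was not computed for other genes. From the first start of Phf1 the nearest was 70329 bases away in NSC and 72920 bases in NSC Bmi1Over, and from that of Rbbp4 104453 and 285141 bases. For Ezh1 the nearest peak was the same region in both lists, 878202 and 878234 bases away. Eed and Aebp2 had no peak within a megabase of their first starts in either list, the nearest in NSC being 2255953 and 1946205 bases away.

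Inside the body of the 10 genes there was 1 peak, in Jarid2 and in the NSC list alone. It covered 594 bases (chr13:44869572-44870165, mm10), stood 5.21-fold over background with a −log10 q of 5.21, and overlapped 0 annotated exons, so it lay in an intron. It stood 140098 bases from the first start of Jarid2 and 28789 bases from the nearest annotated one. Its reference sequence had 55.7% GC and 46 CpG, with an observed to expected CpG ratio of 1.02. The central 200 bases (chr13:44869769-44869968, plus strand) are given with CpG in capitals, 16 of them, to show this density within an intron.
Jarid2 intron: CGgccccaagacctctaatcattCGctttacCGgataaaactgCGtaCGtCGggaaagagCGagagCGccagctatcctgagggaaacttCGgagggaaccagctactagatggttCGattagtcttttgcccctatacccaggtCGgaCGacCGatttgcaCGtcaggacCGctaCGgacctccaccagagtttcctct
In the NSC Bmi1Over list the nearest peak to the first start of Jarid2 was 1442692 bases away. As that list holds fewer peaks and neither has a replicate, presence in only one of them describes these libraries.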

How the data were processed

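RNASeq was analysed in 2 NSC and 2 NSC Bmi1Over libraries and H3K27me3 ChIPSeq in 1 peak list of each. For RNASeq the authors used Trim Galore and then STAR on mm10, and deposited raw counts per gene, before their biotype filtering. The annotation release is not given in the sources used here. For ChIPSeq the authors aligned reads with Bowtie2 2.3.4 and called broad peaks with MACS2 on a single library per condition, discarding the weaker one. The deposited lists give a fold enrichment (a ratio to the MACS2 background) and the −log10 of p-values and q-values.

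Unstranded counts were used, since the first of the 2 strand columns held 49.9% to 50.0% of stranded reads. Rows naming no gene were left out, which kept 65.9% to 72.2% of all reads. GENCODE vM21 matched 50462 of 50686 identifiers. Counts were filtered with filterByExpr, TMM-normalised and tested with the edgeR 4.0.16 quasi-likelihood F-test in R 4.3.3, Benjamini-Hochberg adjusted over all tested genes, with a threshold of 0.05. The biological coefficient of variation was 12.9%. Levels were divided by exon union length. Ratios were tested by exact two-sided permutation (SciPy 1.17.1). Groups came from the sample titles. The code was tested on simulated data. Alternatives were DESeq2 1.42.0, other scalings, filters, lengths and peak thresholds, a correction for GC content and length (mgcv 1.9.3), thinning, the replicate block and leaving out each culture. Exon length without overlapped bases and a second NRF1 spelling were added after seeing the data.

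The 10 genes were named whatever their values, as were all tested partners and demethylases. Of other lists, called genes were named. Members, lists and tests were chosen with earlier results of these data known. Ezh1 had the fewest reads of the 10 genes, 187 to 521 a library.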

Additional observations from a re-analysis of the deposited data

How the results depend on the processing

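Over all genes, the count called was 334 in the report, 1422 with DESeq2, 532 with library size alone, 2356 with no filter on low counts, 534 with the correction for GC content and length, and 3459 with the replicate block, and 176 to 2546 with 1 culture left out. Library size alone put the median log2 fold change over the tested genes at -0.17 and the share of higher genes among the called from 94.3% to 64.8%, the median of the PRC2 genes to -0.23, and Mtf2 to -0.12. Without the filter the share was 80.3%. With 1 culture left out the PRC2 median ran from -0.15 to -0.059. The count of PRC2 genes called was 1, in each case Phf1, with DESeq2, with no filter (adjusted p = 2.001e-06 by edgeR) and with the block, and 0 to 1 with 1 culture left out. Over the 10 alternatives that keep all cultures the log2 fold change of Phf1 ran from 0.75 to 0.91. Called genes among the other Polycomb, demethylase and cell cycle lists numbered 2 with no filter, 6 with the block and 0 to 4 with 1 culture left out. The log2 fold change changed sign for Ezh1 (0.13 without NSC replicate 1 and 0.08 without NSC Bmi1Over replicate 2, from a lowest of -0.19), and, without NSC Bmi1Over replicate 2, for Ezh2 (0.0094), Eed (0.061) and Mtf2 (-0.090). The ratio of Ezh2 to Ezh1 changed sign without NSC replicate 2 (log2 difference 0.12), with a range of -0.21 to 0.12 over the left-out cultures. The cause of these changes was not tested. Labels give both groups the numbers 1 and 2, and the deviations of same-numbered libraries correlated at r = 0.16 over genes. With 2 pairs this cannot tell whether same-numbered libraries share more than a number, such as a preparation. Under the block, edgeR gave Phf1 an adjusted p of 0.000169. Of the main results under the alternatives, 60 values were classed as the same, 19 moved and 1 changed sign. Same meant a count within a fixed factor of the main one, a PRC2 median within the spread over pairs of libraries, or a ratio of unchanged sign. A ratio could thus change in size and still be classed as the same. Protein identity among the paralogues was not run.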
